A study of Mus musculus with 8 samples.

Results

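Secreted WNT antagonists are extracellular proteins that limit WNT signalling, and 10 of their genes were followed in the mesenchyme of the mouse embryonic head: Frzb, Sfrp1, Sfrp2, Sfrp4, Sfrp5, Dkk1, Dkk2, Dkk3, Wif1 and Draxin. They were chosen by name, and each was found as a row among the 23420 genes of the deposited expression table. The tissues were supraorbital mesenchyme (SOM), which lies above the eye, and early migrating mesenchyme (EMM), both dissected from wild-type C57BL/6 embryos at E12.5. Dispase was used to free the mesenchyme from surface ectoderm and brain, and each library came from a pool of 4 to 5 embryos, with 4 libraries per tissue. SOM libraries held 16.8 to 33.7 M gene-assigned reads and EMM libraries 12.7 to 22.4 M. The question addressed is how gene expression compares between these 2 regions of head mesenchyme.

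WNT proteins signal by binding Frizzled receptors together with the co-receptors Lrp5 and Lrp6, which stabilizes beta-catenin in the receiving cell. Frzb and the Sfrp proteins carry a cysteine-rich domain like that of Frizzled receptors and bind WNT proteins outside the cell, and Wif1 also binds WNT proteins directly. Dkk1 and Dkk2 instead bind Lrp5 and Lrp6 and use Kremen proteins as partners, whereas Dkk3 is a divergent member of the Dkk family. Draxin is a secreted axon guidance protein that binds the netrin receptor Dcc and has been described as a WNT inhibitor. In the embryonic head, WNT signalling is known to guide the choice between bone, cartilage and dermal fates.

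The head mesenchyme genes used as a check were all measured in both tissues, 5 of the 8 called toward SOM and 3 toward EMM. A call is a limma adjusted p below 0.05, which 72.1% of all tested genes reached. A normalized count is a read count divided by the size factor of its library. Prrx1, a homeobox gene of limb and head mesenchyme, stood at 13975 ± 610 normalized counts in SOM and 12837 ± 660 in EMM (SD, n = 4 each). The collagen gene Col1a1 stood at 107732 ± 14354 in SOM and 366349.6 ± 25941 in EMM, and Col1a2 at 92912 ± 7553 in SOM and 293153 ± 23879 in EMM. The 8 genes summed to 275824 to 321362 in SOM libraries and 667154 to 783527 in EMM libraries. Col1a1 and Col1a2 made up most of these sums. Markers of other cell types moved with the comparison. Of 8 meninges genes, 6 were higher in EMM, with summed counts of 7212 to 8192 in SOM and 25994 to 28408 in EMM. Of 8 pericyte and smooth muscle genes, 1 was higher in SOM and 7 in EMM, with sums of 10089 to 12011 in SOM and 60666 to 68333 in EMM. All 8 macrophage genes were higher in EMM, with sums of 1927 to 2175 in SOM and 7368 to 8834 in EMM, and all 5 neural crest glia genes were higher in SOM, where their sum was 906 to 1025 against 83.5 to 111 in EMM. Of 8 neuron genes, 3 were higher in each tissue, with sums of 2857 to 3091 in SOM and 1226 to 1618 in EMM. Of 10 brain progenitor genes, 1 was higher in SOM and 3 in EMM, and 5, among them Pax6 and Sox1, lay below the filter on low values. Their sums were 3399.9 to 3582 in SOM and 7649 to 8985 in EMM. Nes made up most of these sums, at 2474 ± 95.6 in SOM and 7895 ± 772 in EMM. Emx2, the 1 gene higher in SOM, stood at 880 ± 111 there and 132 ± 56.9 in EMM. EMM also had higher values for 2 of the 9 surface ectoderm markers, with sums of 246 to 461 in SOM and 762 to 1021 in EMM. These were Krt8 (43.9 ± 5.09 in SOM, 333 ± 42.8 in EMM) and Cdh1 (54.4 ± 8.08 in SOM, 331 ± 47.5 in EMM), which made up most of the EMM sum. The other 6 tested were not called, and the median log2 difference (SOM minus EMM) of the 8 tested was 0.50. Some of them varied widely between libraries of a tissue. Krt5 had 55.4, 46.2, 43.4 and 140 in SOM replicates 1 to 4, and 3.07, 192, 55.4 and 8.08 in EMM replicates 1 to 4. Krt14 had 34.0, 39.9, 25.5 and 75.5 in SOM, and 1.02, 68.7, 19.9 and 1.35 in EMM. Bone genes had 5 calls toward SOM and 1 toward EMM among 6 tested, with sums of 5648 to 7193 in SOM and 2282 to 2717 in EMM. Cartilage genes had 5 calls toward SOM and 1 toward EMM among 7 tested, with sums of 32195 to 54728 in SOM and 31096 to 32345 in EMM. Endothelial genes had 1 call toward SOM and 4 toward EMM among 6, with sums of 9978 to 11865 in SOM and 13323 to 17486 in EMM. The 3 red blood cell genes tested were called toward EMM, with sums of 53961 to 68399 in SOM and 105946 to 255717 in EMM, while Hba-a1 was listed at 0 in all libraries. Skeletal muscle genes summed to 51.8 to 76.8 in SOM and 68.5 to 116 in EMM, and eye genes to 47.8 to 61.4 in SOM and 82.1 to 113 in EMM. The part of these cell types in the results was not tested.

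Bases before the transcription start are shown for Dkk2 and Wif1, which are among the antagonists higher in EMM and whose annotated starts lie close together in RefSeq and GENCODE. The sequences come from RefSeq promoters of GRCm38.p6, where 7 of the 10 genes were matched, and were shortened to the bases that lie before the gene in both annotations, 224 for Dkk2 and 206 for Wif1. Both are written 5′ to 3′ on the strand of the gene. Capitals mark TATAAA, the core of the TATA box, which only the Dkk2 stretch holds.
Dkk2, chr3:132085042-132085265, plus strand: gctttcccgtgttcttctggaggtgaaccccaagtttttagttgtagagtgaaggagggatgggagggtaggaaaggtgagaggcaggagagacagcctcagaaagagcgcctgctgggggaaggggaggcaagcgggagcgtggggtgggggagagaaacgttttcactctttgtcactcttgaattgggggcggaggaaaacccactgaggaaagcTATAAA
Wif1, chr10:121033754-121033959, plus strand: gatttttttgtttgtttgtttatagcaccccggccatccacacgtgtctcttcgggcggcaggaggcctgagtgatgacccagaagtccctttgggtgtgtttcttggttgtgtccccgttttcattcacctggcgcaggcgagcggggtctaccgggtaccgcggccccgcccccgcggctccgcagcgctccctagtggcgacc

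CTTTGA, the core letters bound by TCF and LEF factors, was looked for on both strands in the 250 bases before each RefSeq start. It was found in 2 of the 7 antagonist windows, those of Frzb and Dkk1, and in 13.8% of all 32851 RefSeq promoters. For both genes GENCODE puts the start further upstream, so that 229 of the 250 bases of the Frzb window and 169 of those of the Dkk1 window lie inside the GENCODE gene. The Frzb match and 1 of the 2 Dkk1 matches lie wholly there, and the other Dkk1 match reaches 1 base into it. Of the other windows, 44 bases of that of Wif1 lie inside the GENCODE gene and 26 bases of that of Dkk2 inside the RefSeq gene. Those of Sfrp2 and Draxin lie wholly inside the RefSeq gene, which begins further upstream. TATAAA was looked for after the sequences had been seen and on the strand of the gene alone, and 7.59% of all promoters held it. In the Dkk2 window it lay 32 bases before the promoter start, which is also the GENCODE start. It ended directly before the start of the RefSeq gene at base 132085266. In the Dkk1 window it lay inside the GENCODE gene. These are matches of letters and do not show that a factor binds there.

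Most of the measurable antagonists were higher in EMM. Of the 10 genes, 8 passed the filter of at least 10 normalized counts in at least 4 libraries, and Sfrp4 and Sfrp5 did not. Of these 8, 2 were higher in SOM (Sfrp2 and Draxin) and 6 in EMM (Frzb, Sfrp1, Dkk1, Dkk2, Dkk3 and Wif1). The calls rest on limma with Benjamini-Hochberg adjusted p-values below 0.05 over the 14249 genes tested. Across all tested genes, 36.0% were called higher in SOM and 36.1% higher in EMM, together 72.1%, so a call as such is common in this comparison. The median log2 difference (SOM minus EMM) of the 8 genes was -1.08, beside 0.01 over all genes tested. The 4 libraries of SOM lay apart from those of EMM in 7 of the 8 genes, 2 higher in SOM and 5 in EMM. Among all tested genes such separation was found in 66.1%, of which 32.9% were higher in SOM and 33.2% in EMM, as shares of all tested genes. Differences of at least 2-fold were found for 1 gene toward SOM (background 5.19%) and 5 toward EMM (background 11.0%). In bulk tissue, fewer cells of a type and less RNA per cell cannot be told apart.

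**Figure D1:**
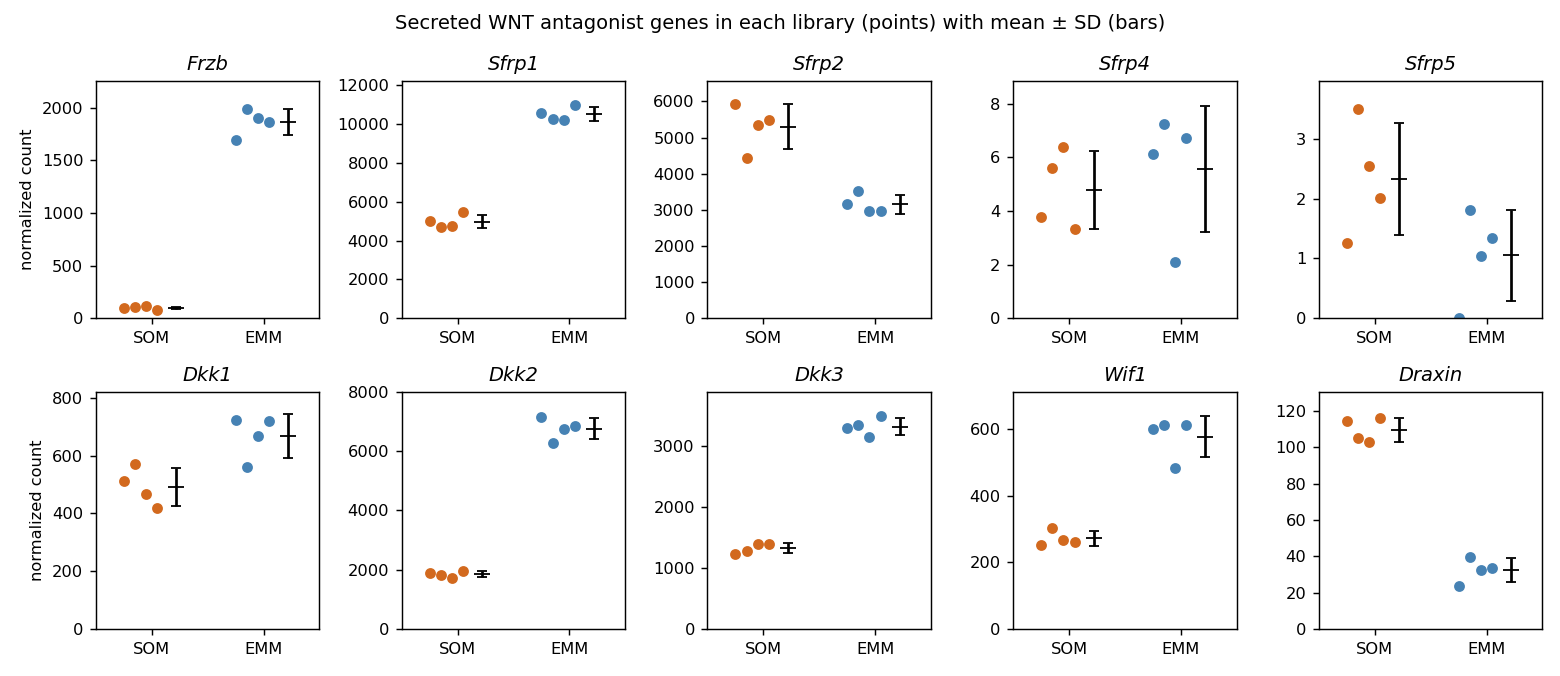
Normalized count (vertical axis, from 0, scaled per gene) of the 10 antagonist genes in each SOM library (orange) and EMM library (blue), with the mean ± SD of 4 libraries in black. SOM and EMM libraries lie apart for Frzb, Sfrp1, Sfrp2, Dkk2, Dkk3, Wif1 and Draxin, and overlap for Dkk1, Sfrp4 and Sfrp5.

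Among the antagonists with a Frizzled-like domain, Frzb and Sfrp1 were higher in EMM and Sfrp2 was higher in SOM. Frzb, first known from cartilage, had 97.0, 102, 112 and 80.8 normalized counts in SOM replicates 1 to 4, against 1695, 1990.0, 1901 and 1859 in EMM replicates 1 to 4. Every EMM library was far above every SOM library. Its means were 97.9 ± 12.9 in SOM and 1861 ± 124 in EMM, which is 19.0-fold higher in EMM (log2 difference -4.24, SE 0.09, limma adjusted p = 3.44e-15). Only 65 of the 14249 tested genes had a larger absolute log2 difference. Frzb lies on chromosome 2 from 80411970 to 80447625 (GRCm38, minus strand).

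Sfrp1, known from many mesenchymal and neural tissues of the embryo, had 5019, 4716, 4732 and 5451 normalized counts in SOM, against 10558, 10282, 10228 and 11002 in EMM. The groups did not overlap, and the spread within each was small beside the difference between them. The log2 difference was -1.08 (SE 0.05), that is 2.11-fold higher in EMM (limma adjusted p = 3.21e-11). Sfrp1 lies on chromosome 8 from 23411502 to 23449632, plus strand.

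Sfrp2, strongly expressed in fibroblast-like mesenchyme, moved the other way. It had 5925, 4433, 5351 and 5485 normalized counts in SOM replicates 1 to 4, against 3154, 3521, 2967 and 2978 in EMM replicates 1 to 4. SOM replicate 2 was the lowest of its group and EMM replicate 2 the highest of its own, and they still lay apart. The gene was 1.68-fold higher in SOM (log2 difference 0.74, SE 0.08, limma adjusted p = 7.07e-06). Sfrp2 lies on chromosome 3 from 83766321 to 83774316, plus strand, where 347 exonic bases are shared with the antisense gene Gm26771, so that reads there cannot be told apart without strand information.

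Sfrp4 and Sfrp5, known from bone and from gut and heart development, were close to the limit of detection. Sfrp4 had 3, 8, 10 and 5 reads in SOM replicates 1 to 4, against 6, 4, 2 and 5 reads in EMM replicates 1 to 4. The groups overlapped (log2 difference of normalized count + 1, -0.12; two-sided exact permutation p = 0.771, where 0.0286 is the smallest that 4 against 4 libraries allow). Sfrp5 had 1, 5, 4 and 3 reads in SOM, against 0, 1, 1 and 1 reads in EMM. The log2 difference was 0.75 (two-sided exact permutation p = 0.0857), and no difference was detectable at this depth. In EMM replicate 1, a count of 0 reads allows up to 3 reads, or 3.07 normalized counts.

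All 3 Dkk genes were higher in EMM. Dkk2, which can inhibit or weakly activate WNT signalling through Lrp6, had 1893, 1834, 1716 and 1943 normalized counts in SOM, against 7139.9, 6272, 6746 and 6857 in EMM. All EMM libraries lay above all SOM libraries, and the means differed 3.66-fold (log2 difference -1.87, SE 0.05, limma adjusted p = 5.55e-14). Dkk3 had 1224, 1282, 1389 and 1383 normalized counts in SOM, against 3284, 3338, 3147 and 3484 in EMM. Here too the groups lay apart, with a log2 difference of -1.33 (SE 0.05, limma adjusted p = 4.24e-12).

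Dkk1, an inhibitor required for head formation, showed a small difference. It had 512, 572, 468 and 417 normalized counts in SOM replicates 1 to 4, against 725, 562, 667 and 722 in EMM replicates 1 to 4. SOM replicate 2 exceeded EMM replicate 2, so the groups overlapped. The gene was called higher in EMM, by 1.36-fold (log2 difference -0.44, SE 0.10, limma adjusted p = 0.00138). Larger absolute differences were found in 45.1% of the tested genes. Dkk1 lies on chromosome 19 from 30545863 to 30549665, Dkk2 on chromosome 3 from 132085292 to 132180304, and Dkk3 on chromosome 7 from 112116017 to 112159057.

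Wif1, which binds WNT proteins through its WIF domain, had 253, 304, 268 and 262 normalized counts in SOM, against 599.9, 615, 485 and 614 in EMM replicates 1 to 4. EMM replicate 3 was the lowest of its group but above every SOM library. The gene was 2.13-fold higher in EMM (log2 difference -1.08, SE 0.09, limma adjusted p = 2.09e-08). It lies on chromosome 10 from 121033960 to 121100650.

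Draxin, the axon guidance and WNT inhibitor gene, was the other antagonist higher in SOM. It had 115, 105, 103 and 116 normalized counts in SOM replicates 1 to 4, against 23.5, 39.8, 32.4 and 33.7 in EMM replicates 1 to 4. The groups lay well apart, and the means differed 3.39-fold (log2 difference 1.75, SE 0.17, limma adjusted p = 1.23e-07). The SOM value rests on 576 reads and the EMM value on 101. Neuron markers went both ways: Stmn2 (1057 ± 80.7 normalized counts in SOM, 114 ± 43.8 in EMM), Tubb3 (1502 ± 58.6 in SOM, 663 ± 122 in EMM) and Elavl4 (29.0 ± 5.79 in SOM, 18.1 ± 6.94 in EMM) were called toward SOM. Syt1 (15.6 ± 4.77 in SOM, 131 ± 26.1 in EMM), Snap25 (45.2 ± 4.28 in SOM, 82.7 ± 19.4 in EMM) and Elavl3 (3.54 ± 2.73 in SOM, 20.8 ± 10.6 in EMM) were called toward EMM. Map2 was not called, Neurod1 lay below the filter, and the median log2 difference of the 7 tested was -0.02. Their part in the Draxin difference was not tested. Draxin lies on chromosome 4 from 148098437 to 148130698.

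**Figure D2:**
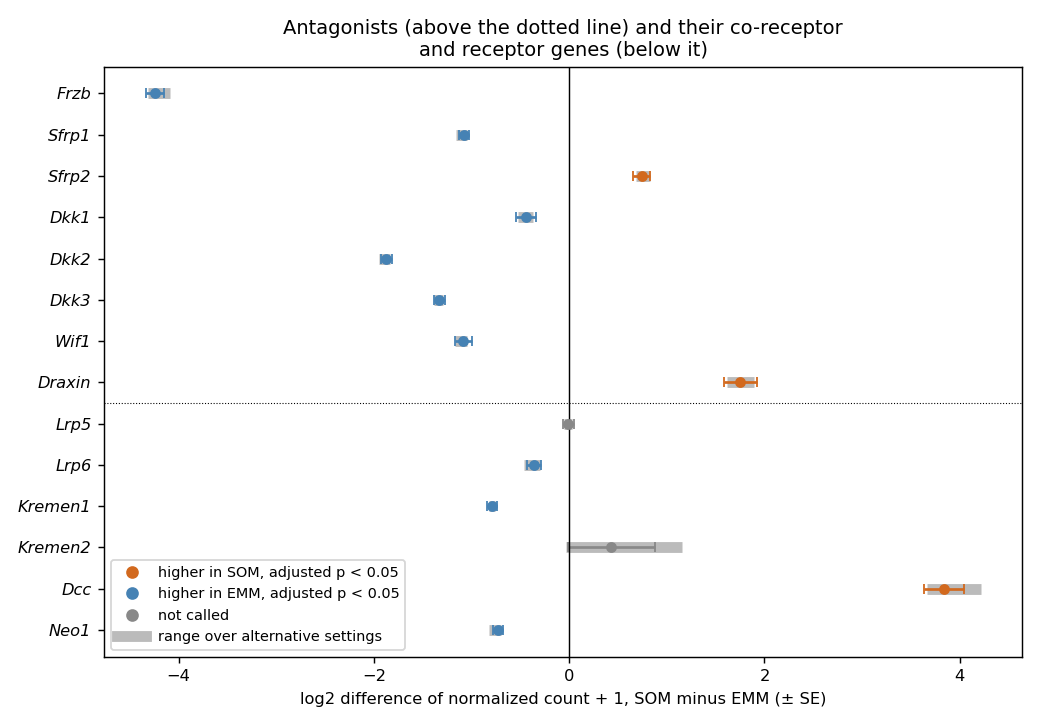
Log2 difference of normalized count + 1, SOM minus EMM (horizontal axis; points with SE), for the 8 tested antagonists and 6 co-receptor or receptor genes. Grey bands show the range over alternative settings, and no antagonist crosses 0 in any of them, whereas Lrp5 and Kremen2 do.

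Dividing by the exonic length of each gene allows levels of different genes to be set side by side. In SOM, Sfrp2 led with 2461 ± 291 normalized counts per kb (SD, n = 4), above Sfrp1 with 1139 ± 78.7. Dkk2 followed with 498 ± 26.3 and Dkk3 with 393 ± 24.0 per kb. Below these in SOM stood Dkk1 (203 ± 27.1), Wif1 (112 ± 9.25), Frzb (30.2 ± 3.99) and Draxin (21.1 ± 1.30). The order of these 8 in SOM held without overlap between neighbours, while the lowest genes, Sfrp5 and Sfrp4, overlapped.

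In EMM the order differed. Sfrp1 led with 2406 ± 81.0 normalized counts per kb, then Dkk2 with 1823 ± 97.6 and Sfrp2 with 1465 ± 120.1. Dkk3 followed with 986 ± 41.6 and Frzb with 575 ± 38.2, ahead of Dkk1 (276 ± 31.3) and Wif1 (238 ± 25.8), which overlapped. Draxin stood at 6.22 ± 1.29 per kb in EMM, above Sfrp4 and Sfrp5, which overlapped each other. Per length, the ratio of Sfrp2 to Sfrp1 was 1.91 to 2.40 in SOM libraries and 0.55 to 0.70 in EMM libraries, so the leading gene was Sfrp2 in every SOM library and Sfrp1 in every EMM library.

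The make-up of the antagonist pool differed along with its size. Summed over the 10 genes, the level was 4860.0 ± 320.4 normalized counts per kb in SOM and 7777 ± 165 in EMM, with ranges of 4431 to 5144 in SOM and 7544 to 7921 in EMM. Sfrp2 made up 50.6% of the summed level in SOM and 18.8% in EMM. Frzb made up 0.622% in SOM and 7.39% in EMM, and Dkk2 10.3% in SOM and 23.4% in EMM. The 3 Dkk genes together reached 1094 ± 19.8 per kb in SOM and 3085 ± 135 in EMM. The 5 genes with a Frizzled-like domain reached 3633 ± 335 in SOM and 4448 ± 126 in EMM. These sums are descriptions and were not tested.

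**Figure D3:**
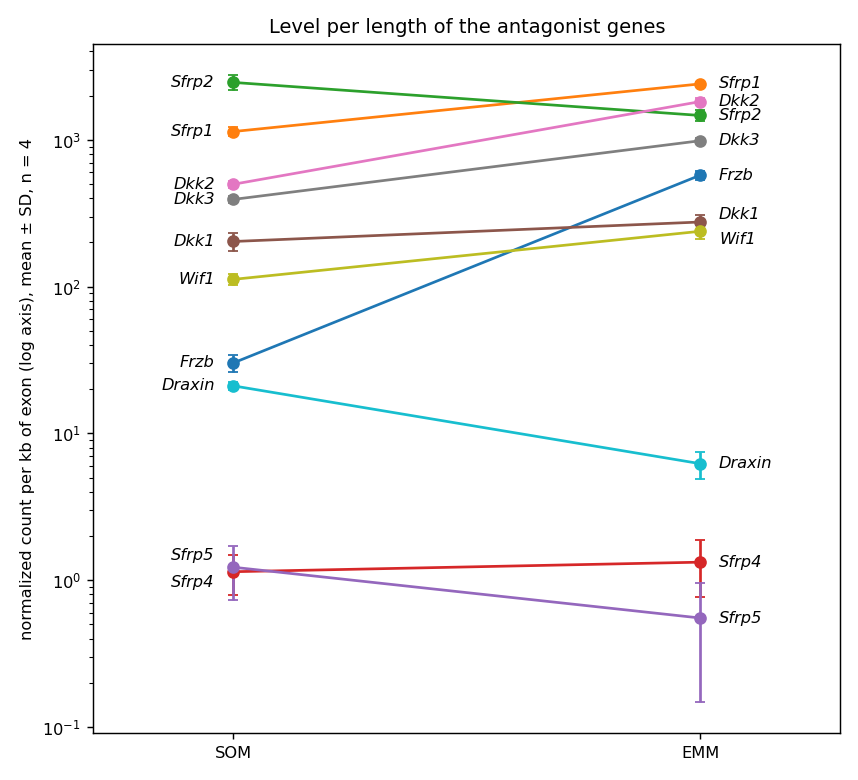
Normalized count per kb of exon (log axis; mean ± SD of 4 libraries) of each antagonist in SOM (left) and EMM (right), joined by lines. Sfrp2 leads in SOM and Sfrp1 in EMM, and the Frzb line is the steepest, at 30.2 per kb in SOM and 575 in EMM.

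Among the receptors used by Dkk proteins, Lrp6 and Kremen1 were higher in EMM, and Lrp5 and Kremen2 were not called. Lrp6 stood at 2913 ± 357 normalized counts in SOM and 3718 ± 95.9 in EMM (log2 difference -0.36, SE 0.07, limma adjusted p = 0.000354). Lrp5 was at 2767 ± 231 in SOM and 2781 ± 36.8 in EMM and did not pass (limma adjusted p = 0.868); its difference of -0.011 changed sign with upper quartile or TMM scaling. Kremen1, a receptor that binds Dkk1 and Dkk2, was higher in EMM, at 1277 ± 64.4 in SOM against 2211 ± 41.2 in EMM (limma adjusted p = 9.21e-10). Kremen2 had 17.2 ± 3.01 in SOM and 15.3 ± 11.3 in EMM and did not pass (limma adjusted p = 0.394), but was called higher in SOM without EMM replicates 2 and 3 and SOM replicate 4 (limma adjusted p = 0.0236).

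Receptor genes of the netrin pathway went both ways. Dcc and Unc5b were called toward SOM, as was Draxin itself, whereas Neo1, Unc5a and Unc5c were called toward EMM and Unc5d was not called. Dcc stood at 464 ± 58.8 normalized counts in SOM and 32.6 ± 10.6 in EMM (log2 difference 3.84, SE 0.20, limma adjusted p = 2.60e-09). Neo1, a receptor related to Dcc, was higher in EMM, at 5749.9 ± 426 in SOM against 9521 ± 384 in EMM (log2 difference -0.73, SE 0.05, limma adjusted p = 5.64e-09).

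The other lists of WNT genes held calls in both directions, as did all genes tested, of which 36.0% were called toward SOM and 36.1% toward EMM. Of 24 partner genes (Frizzled and related receptors, co-receptors, and netrin pathway genes), calls were made for 10 toward SOM and for 8 toward EMM, and the remaining 6 were not called; their median log2 difference was 0.08. Fzd9, higher in SOM, stood at 224 ± 62.2 there and 54.6 ± 13.1 in EMM, and Fzd10 was higher in EMM, with a log2 difference of -1.93. Of 21 genes for WNT ligands and their secretion, 9 lay below the filter. Among the 12 tested, 3 were higher in SOM, such as Wnt5b (0.56) and the acyltransferase gene Porcn (0.29), 6 were higher in EMM and the last 3 were not called (median -0.28). The ligand genes Wnt6 and Wnt2b were higher in EMM, with log2 differences of -4.03 and -2.24.

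Against the same background of 72.1% called, 36.0% toward SOM and 36.1% toward EMM, 20 further inhibitor genes were followed, of which 18 were tested, with calls for 4 toward SOM and 7 toward EMM and none for the other 7 (median 0.06). Log2 differences in this list ran from -1.96 (Sostdc1) to 5.70 (Shisa3). Shisa3 stood at 181 ± 23.9 in SOM and 4.65 ± 6.61 in EMM, and Sostdc1 at 16.8 ± 2.53 in SOM and 69.7 ± 21.2 in EMM. The membrane inhibitor Apcdd1 (0.54) and Ctnnbip1 (0.38), which blocks beta-catenin binding to TCF, were higher in SOM. Nkd1 (-1.05), an inhibitor inside the cell, and Trabd2b (-0.78), a protease that cleaves WNT proteins, were higher in EMM. The remaining Dkk gene, Dkk4, lay below the filter, with means of 0.334 in SOM and 0 in EMM. Of 16 WNT response genes, calls were made for 8 toward SOM and 6 toward EMM, leaving 2 without a call (median 0.16). Lef1, the beta-catenin partner, was higher in SOM at 5369 ± 187 against 1281 ± 90.6 in EMM, and the cyclin gene Ccnd1 by 1.36 on the log2 scale. Nkd1, Tnfrsf19 (-0.93) and Axin2 (-0.26) were higher in EMM. Log2 differences in the response list ran from -1.36 (Rnf43) to 3.62 (Lgr5). This list also holds the beta-catenin gene Ctnnb1 and the TCF genes Tcf7l1 and Tcf7l2, called toward SOM, and Tcf7, called toward EMM. Axin2, Nkd1, Nkd2, Notum, Rnf43, Znrf3 and Apcdd1 stand in both the inhibitor and the response list, so the counts and medians of these lists overlap. The limma adjusted p of the genes named here as higher in SOM or EMM was at most 0.0100.

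**Figure D4:**
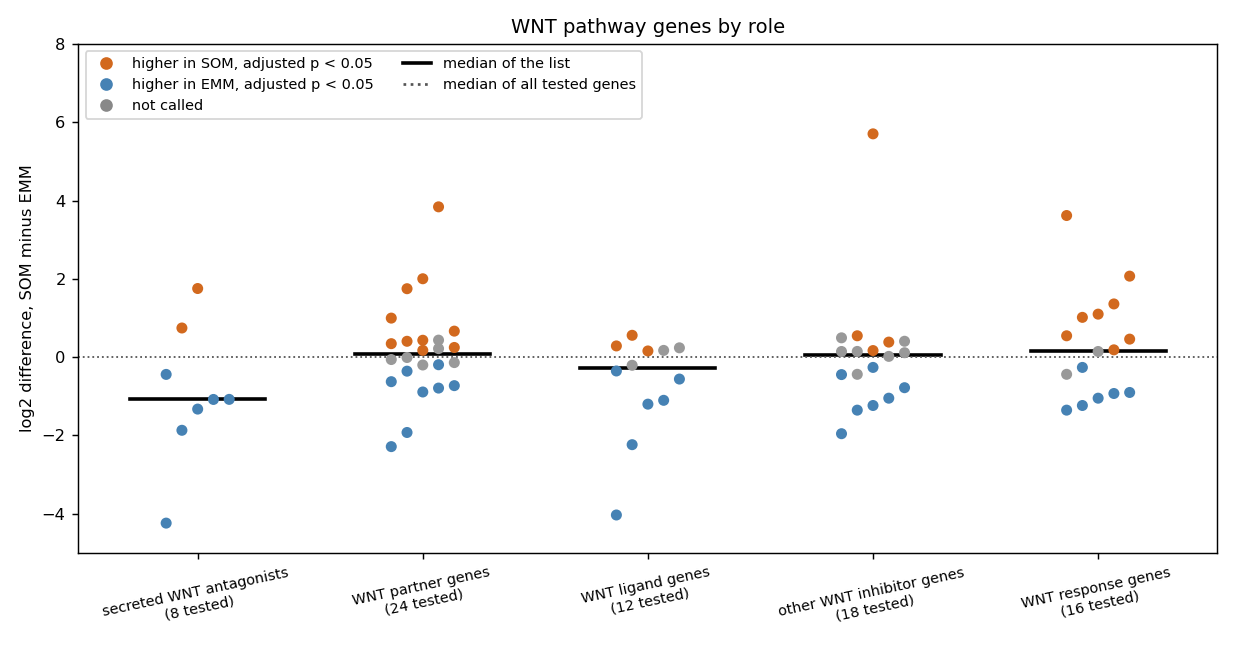
Log2 difference, SOM minus EMM (vertical axis), of each tested gene in 5 lists of WNT genes, coloured by call, with the list median as a black bar and the median of all tested genes as a dotted line. The antagonist median lies at -1.08, and the medians of the other lists lie between -0.28 and 0.16. The inhibitor and response lists share some genes.

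Likeness to a member was measured as the root mean square difference between centred log2 profiles over the 8 libraries, among 11266 genes with a mean of at least 100. For Frzb the nearest genes were Apod (0.14), which encodes the lipid carrier apolipoprotein D, Nipal4 (0.22) and Cdh10 (0.22), a cadherin gene. Apod stood at 497 ± 61.7 normalized counts in SOM and 8046 ± 491 in EMM. For Draxin they were Gsta4 (0.12), a glutathione transferase gene, Thrb (0.16), a thyroid hormone receptor gene, and Tfap4 (0.18), a transcription factor gene. Gsta4 stood at 887 ± 52.2 in SOM and 238 ± 43.8 in EMM. These likenesses are dominated by the difference between the tissues.

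In the authors' deposited table, where positive values mean higher in EMM, the log2 fold changes were 4.20 for Frzb, 1.87 for Dkk2 and 1.32 for Dkk3. In the same authors' deposited table, Sfrp2 and Draxin had -0.74 and -1.71. The authors' deposited table also gave Dkk1 0.44 (adjusted p = 8.32e-05) and Sfrp4 0.11 (adjusted p = 0.868).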

How the data were processed

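Total RNA of 8 mesenchyme pools was sequenced after Illumina TruSeq library preparation, per the labels' protocols. The submitters' processing notes name bcl2fastq, STAR, DESeq2 and mm10, without versions; for the read counter, the annotation and the strand setting, nothing is given in the sources used here. Per the file headers and the values, the deposited table gives a signal per gene and library that is a normalized count, meaning reads scaled by the size factor of the library. It also holds the authors' log2 fold change and its standard error, their Wald score, and the deposited p-value and adjusted p-value.

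Dividing each deposited column by its smallest nonzero value gave whole numbers for 100% of values, within 1 ppm, and these were taken as reads. On these reads, edgeR 4.0.16 called 5262 genes higher in SOM and 5088 higher in EMM. The main fit was limma 3.58.1 in R 4.3.3 on log2(normalized count + 1), using trended and robust empirical Bayes moderation, no covariate, and differences as SOM minus EMM, a scale that understates the change of low genes. The floor for a count of 0 was 3 reads, which covers counting error only. P-values measure the spread between pools. Libraries of a group differed by a chi-square per degree of freedom of 3.62 to 18.9, so none was counted as a repeat of another. Exonic lengths and coordinates came from GENCODE M21 (GRCm38, the assembly that mm10 names). Alternatives included edgeR and DESeq2 1.42.0 on recovered reads.

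The members, the gene lists and the left-out libraries were chosen with earlier results of these data known. Named genes were the 10 members, 6 receptor genes, up to 2 genes per direction with the lowest adjusted p from each of 4 WNT lists, and the 3 genes most like 1 member per direction, 35 in all. Protein sequences were not used here, so identity between members was not computed.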

Additional observations from a re-analysis of the deposited data

Results flagged for a closer look

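Of 72 sets of 4 values checked (the 35 named genes and the summed level of the members, in each tissue), 4 had a library whose gap to its nearest neighbour exceeded Dixon's 95% limit. Chance flags about 1 in 20 such sets. Wif1 had 485 normalized counts in EMM replicate 3, below 599.9 to 615 in the other EMM libraries. Neo1 had 6385 normalized counts in SOM replicate 4, above 5467 to 5580 in the other SOM libraries. Porcn had 179 normalized counts in EMM replicate 1, below 201 to 205 in the other EMM libraries. Apcdd1 had 2615 normalized counts in EMM replicate 1, below 3065 to 3141 in the other EMM libraries.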

How the results depend on the processing

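The counts of 2 antagonists higher in SOM and 6 in EMM were the same in all 18 alternatives of the fit, and each of the 8 kept its direction and call there. Dkk1 ranged from -0.52 to -0.37 on the log2 scale (limma adjusted p at most 0.00682 in any alternative), Frzb from -4.31 to -4.09, Sfrp2 from 0.69 to 0.83 and Draxin from 1.61 to 1.89. Lrp5, which was not called, changed sign with upper quartile scaling (0.019), TMM scaling (0.000839), edgeR (0.00547), and between -0.052 and 0.028 when libraries were left out singly. Kremen2 lay between -0.030 and 0.85 when libraries were left out singly, and had a limma adjusted p of 0.0236 without EMM replicates 2 and 3 and SOM replicate 4. With the longer motif CTTTGAT, 3.21% of promoters and 0 of the 7 antagonist promoters held a match. With the longest transcript as length the sums per kb were 5052 in SOM and 7917 in EMM, and the order of the genes was the same. The replicate block gave 5103 genes higher in SOM and 5146 in EMM, with 2 and 6 antagonists. Same-numbered libraries correlated in their deviations from the group means at -0.0199 to 0.126, and 3 of 8 libraries correlated best with their own number. With 4 libraries per tissue, such correlations cannot tell whether equal numbers mark paired pools, and the main fit used no pairing. Depth limits Sfrp4 and Sfrp5, at no more than 10 reads in any library.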

Other observations

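Values of 5 more netrin pathway genes, picked out here after their values were seen, are given beside a background of 72.1% of all tested genes called. All 5 belong to the 24 partner genes above, so their calls are already counted there. Ntn1, which encodes the ligand of Dcc, had a mean of 1450.2 normalized counts in SOM and 922 in EMM, with a log2 difference (SOM minus EMM) of 0.66 and a limma adjusted p of 1.52e-05. The repulsive netrin receptor gene Unc5b had 968 to 1444 in SOM libraries and 267 to 592 in EMM libraries, with a log2 difference of 1.75. Unc5c, another such receptor gene, had 672 to 985 in SOM libraries and 3732 to 4524 in EMM libraries, with a log2 difference of -2.29. Unc5a had 14.7 to 21.4 in SOM libraries and 28.3 to 42.9 in EMM libraries, with a log2 difference of -0.89 and a limma adjusted p of 0.00183. Unc5d had 17.9 to 25.9 in SOM libraries and 14.3 to 28.9 in EMM libraries and was not called (log2 difference 0.22, limma adjusted p of 0.468).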
